A study of Mus musculus with 188 samples.

Results

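The 34 genes described here encode subunits of the receptors for glutamate and GABA, the main excitatory and inhibitory transmitters of the brain. They were taken by symbol and were matched to the Ensembl identifiers of the count tables, and all 34 were found among the 25655 genes listed for batch 1 and the 25528 listed for batches 2 and 3. The set holds 4 AMPA, 6 NMDA and 5 kainate receptor subunits, 7 metabotropic glutamate receptors, 10 GABA-A subunits and the 2 GABA-B subunits. After the filter on low counts 32 members were tested in batch 1 and 33 in batches 2 and 3. Gabra6, the GABA-A subunit that marks cerebellar granule cells, was left out of both, with a read in only 11 of 167 libraries and 18 reads in all. Gabrd was left out of batch 1, where 56 of 60 libraries held at least 1 read and the highest count was 20.

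The tissue was coronal brain slice culture, 150 μm thick, from wild-type C57BL/6J mice of both sexes aged 6 to 8 weeks, treated on day 7 of culture, with 2 slices on each membrane insert. All libraries were made from bulk mRNA, and heme, hemoglobin and the carrier proteins were of human origin. Of 188 libraries, 167 could be assigned to 18 groups, and the other 21 carry labels that contradict each other and enter no comparison. Batch 1 held 10 libraries each at 24 h of control, of heme-albumin (heme on its low-affinity plasma carrier) at 12.5, 50, 200 and 400 μM, and of hemeHpx (heme bound by its scavenger hemopexin) at 200 μM. The titles of the hemeHpx libraries name haptoglobin where their treatment field and library names give hpx, and the latter were followed. Batches 2 and 3 held control (10 libraries at 24 h and 9 at 48 h), cell-free hemoglobin (Hb) at 200 and 400 μM (10 at each dose and time), hemoglobin bound by haptoglobin (HbHp) at 200 μM (8 and 8) and at 400 μM (4 and 5), and haptoglobin alone (Hp) at 400 μM (12 and 11). The labels do not say for every library that it came from a separate animal, so p-values measure the spread between libraries.

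Glutamate opens the ionotropic AMPA, NMDA and kainate channels, each built of 4 subunits, and also acts through metabotropic receptors, which signal through G proteins. GABA opens the chloride channels of the GABA-A receptors and acts through the GABA-B receptor, an obligate pair of Gabbr1 and Gabbr2 that signals through G proteins. Neurons carry most of these receptors, but astrocytes and oligodendrocyte precursors also carry some of them, among them Grm3, Grm5, Gabrb1, Gabrg1 and Grin2c. In bulk libraries, fewer cells of a type cannot be told apart from less RNA per cell.

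Library totals ran from 11 to 54.2 M counts with a median of 28.8 M, and mitochondrial transcripts took 1.9 to 5.57% of them. Glial transcripts were abundant in control slices, with Gfap at 5910 and 3530 CPM and Mbp at 9360 and 15000 CPM in batch 1 and in batches 2 and 3 at 24 h. The 10 neuronal markers summed to a median of 636 and 716 CPM and differed widely in level, with the synaptic gene Snap25 at 20 and 19.1 CPM and Rbfox3 at 2.76 and 2.61 CPM. The inhibitory marker Gad1 stood at 12.1 and 13.8 CPM, and the cortical excitatory markers Slc17a7 at 0.587 and 2.12 CPM and Neurod6 at 0.0236 and 0.0599 CPM. CPM is the read count per M reads (mega-reads) of the TMM-scaled library. The library names of batches 2 and 3 also carry the codes E1 and E2, called series here because no source gives their meaning. The series stood far apart, with 36.1% of the 16473 genes tested higher and 31.9% lower in E2 than in E1. All 25 HbHp libraries belong to E2 and to batch 3, and all Hp libraries to batch 3. Only 3 of 10 controls at 24 h and 2 of 9 at 48 h were in E2. Batch 3 held only 1 control of each series at each time. Series and batch were therefore terms of the model.

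The levels in control slices were compared between genes as CPM per kilobase of exon. In batch 1 the highest was Gabbr1, the ligand-binding GABA-B subunit, at 19.1 ± 1.65 (SD, n = 10), followed by the kainate subunit Grik5 at 16.5 ± 2.9, the Gq-coupled receptor Grm5 at 10.6 ± 2.99, the Gi-coupled receptor Grm3 at 10.4 ± 1.17 and the kainate subunit Grik3 at 8.63 ± 2.84. The AMPA subunits came next, with Gria1 at 5.94, Gria2 at 5.85, Gria3 at 5.1 and Gria4 at 4.21, and then Gabrb1 at 3.58. Grin1, the subunit that every NMDA receptor needs, stood at 0.673 ± 0.288, Grin2b at 0.369 and Grin2a at 0.102. Grin2c was higher than these at 1.66 ± 0.579. The exon length was the union of all annotated exons, 9700 bases for Grin1 against 4276 in its longest transcript. For Grin2c these lengths were 5037 and 4895 bases, so the distance between both genes depends on the length used. At the low end were Grm8 at 0.0579 and Gabra6 at 0.0076. Most neighbours in this order did not differ beyond their spread. In batch 1 the gap to the next gene exceeded the larger of both SDs only below Grik5, Gabrb1 and Gabrb2.

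By family, kainate subunits made up 27.6 ± 2.38% of the summed CPM per kilobase in batch 1 controls, metabotropic receptors 21.5 ± 3.56%, AMPA subunits 19.2 ± 3.18%, GABA-B subunits 18.7 ± 1.18%, GABA-A subunits 9.37 ± 0.872% and NMDA subunits 3.74 ± 0.621% (SD, n = 10). In the 24 h controls of batches 2 and 3 the order of the families was kainate (30.7%), AMPA (23.2%), GABA-B (16.9%), metabotropic (16.5%), GABA-A (8.17%) and NMDA (4.5%). The place of the metabotropic receptors differed between the series of these libraries. They made up 18.7 ± 1.99% in the 7 libraries of E1, above GABA-B at 16 ± 1.27%, and 11.4 ± 0.0988% in the 3 of E2, below GABA-B at 18.9 ± 0.371% (SD). All these shares depend on the length used. The union of exons was 9859 bases for Gria3 against 5206 in its longest transcript, and 3049 against 3049 for Grm3. The members also differed in how much they varied between libraries of 1 group. Grin1 varied most, with a within-group SD of 0.589 on the log2 scale in batch 1 and 0.607 in batches 2 and 3, and Gabbr1 varied least among the tested members, with 0.127 and 0.138.

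**Figure D1:**
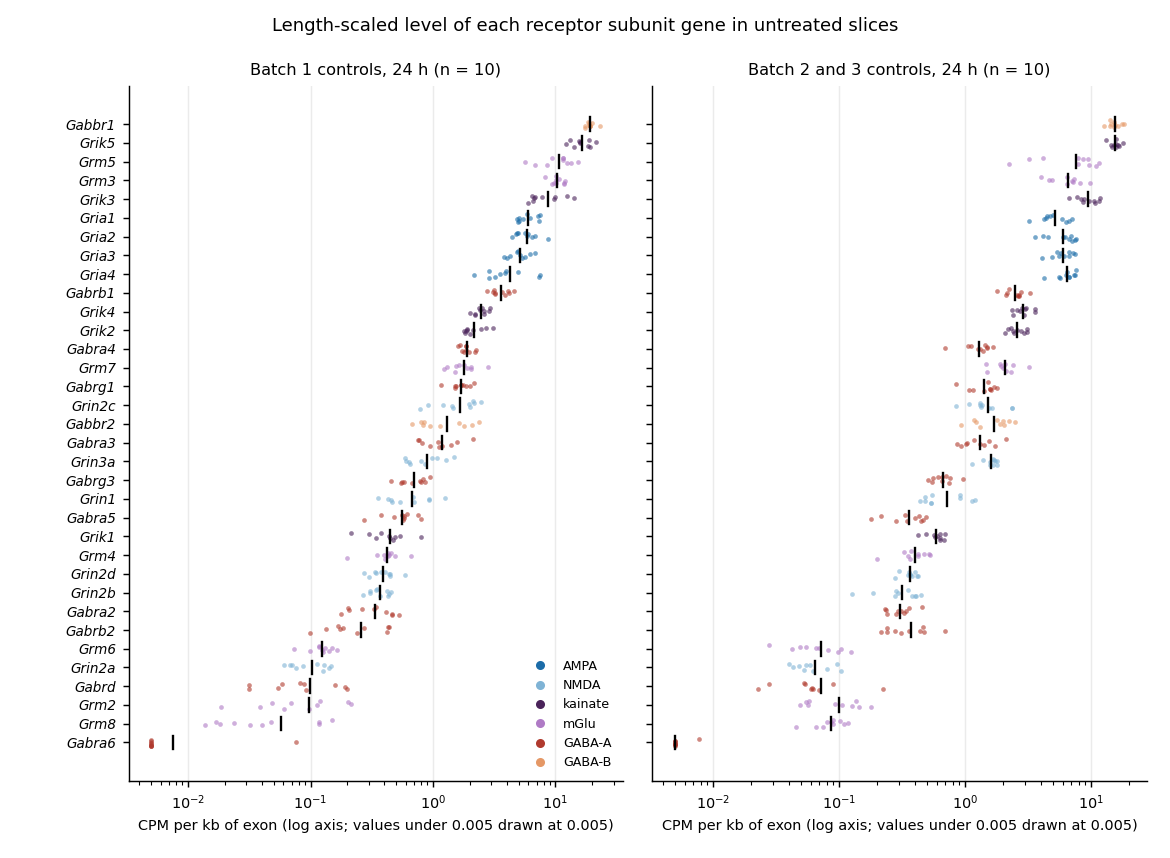
Levels of the 34 receptor subunit genes in control slices at 24 h, as TMM-scaled CPM per kilobase of exon on a log axis, in batch 1 (left) and in batches 2 and 3 (right). Points are libraries (10 for each gene and panel), drawn at the left edge where they are near 0, and black marks are means; in batch 1 the means run from 0.0076 for Gabra6 to 19.1 for Gabbr1.

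Between libraries of 1 group most members varied together with neuronal or with astrocyte markers. The relation of each member's log2(CPM + 0.5) to the mean of 10 neuronal markers and to that of 7 astrocyte markers was computed over libraries after group means, batch and series had been taken out. Of 130 such relations, 26 of 32 members in batch 1 and 28 of 33 in batches 2 and 3 passed an adjusted p of 0.05 with the neuronal list (permutation test within groups, two-sided). Of these, 22 and 23 were positive. With the astrocyte list 25 and 27 passed, of which 19 and 19 were negative. The same relations were not computed for all genes. These counts are therefore not shown to differ from the share over all genes. Relations across libraries that share depth and scaling are given as such, and the part of cell composition in the results below was not tested.

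Grin1 followed the neuronal markers most closely, with Pearson's r = 0.92 and Spearman's rho = 0.91 in batch 1 (n = 60), and r = 0.90 without the 2 libraries farthest from the median. In batches 2 and 3 its r was 0.92, its rho 0.92, and its r 0.94 within batch 2 and 0.90 within batch 3. Each of these permutation p-values was 1e-05, the smallest that 100000 permutations can give (adjusted p = 2.5e-05). Gabbr2, the signalling partner of Gabbr1, had r = 0.91 (rho = 0.89) in batch 1 and 0.82 (rho = 0.81) in batches 2 and 3. For Gria1, r was 0.86 (rho = 0.86) and 0.72 (rho = 0.72). Another set ran with the astrocyte markers instead. Grm5 had r = 0.68 (rho = 0.66) with them in batch 1 and 0.61 (rho = 0.62) in batches 2 and 3, Grm3 0.67 (rho = 0.57) and 0.69 (rho = 0.56), Grin2c 0.60 (rho = 0.53) and 0.67 (rho = 0.68), and Gabra4 0.52 (rho = 0.47) and 0.72 (rho = 0.67). The adjusted permutation p of these relations was at most 2.1e-04, and without the 2 libraries farthest from the median their r lay between 0.53 and 0.89. Within batch 2 and within batch 3 the r of Gabbr2 was 0.91 and 0.71, that of Gria1 0.79 and 0.67, that of Grm5 0.67 and 0.56, that of Grm3 0.79 and 0.63, that of Grin2c 0.60 and 0.71 and that of Gabra4 0.74 and 0.72. Grm5, Grm3 and Grin2c were also negatively related to the neuronal list in both sets of libraries, with r between -0.57 and -0.32.

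**Figure D2:**
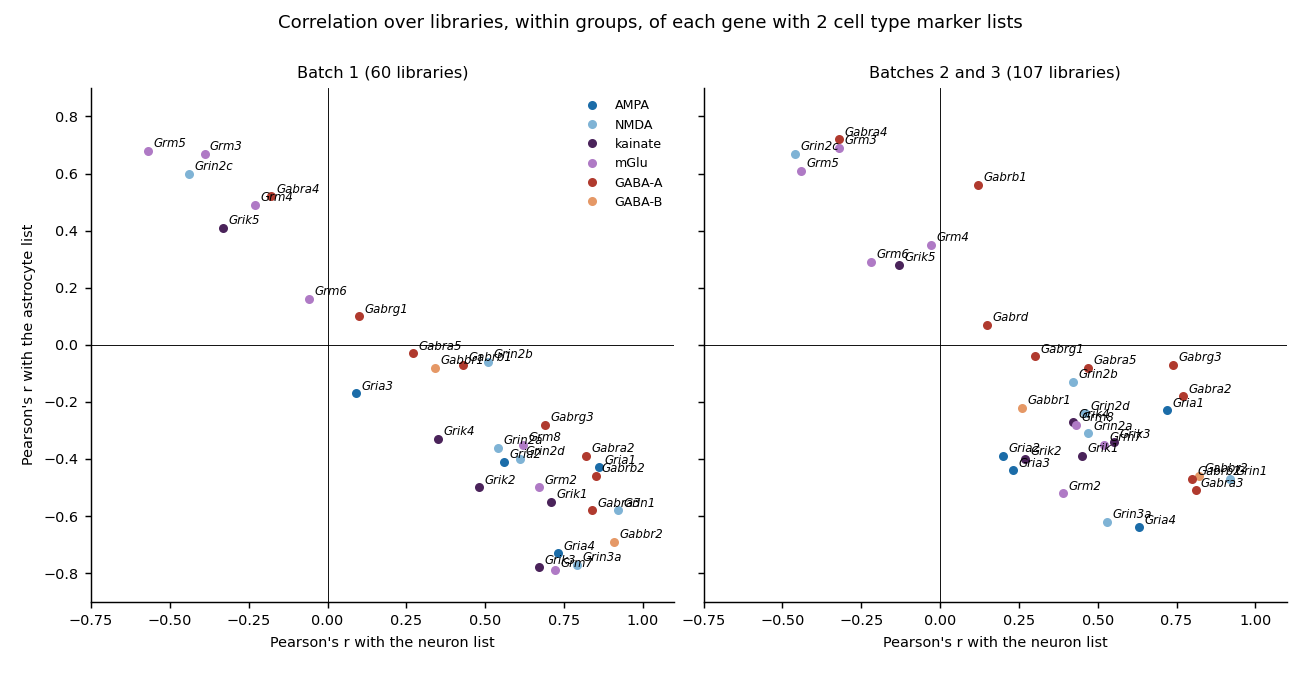
Pearson's r of each member with the neuronal marker list (horizontal axis) and with the astrocyte marker list (vertical axis), over libraries after group means, batch and series were taken out, in batch 1 (left, 60 libraries) and in batches 2 and 3 (right). Grin1, Gabbr2 and Gria1 lie far to the right, with r of 0.86 to 0.92 in batch 1, and Grm3, Grm5, Grin2c and Gabra4 lie at the top.

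With heme-albumin, the members called in batch 1 were all lower, at 200 and 400 μM only, while most members were not called at any dose. At 400 μM at least 1 member of every family was called, and at 200 μM 0 of the NMDA and kainate subunits. At 12.5 μM and at 50 μM no member passed an adjusted p of 0.05 (edgeR quasi-likelihood test, Benjamini-Hochberg over 15554 genes), and 2 members in each had an unadjusted p under 0.05. DESeq2 called 0 members at both doses as well. Among all genes tested, 0.045% and 0.463% were called at these doses. At 200 μM 5 of 32 members fell and 0 rose, against 6.6% of all genes lower and 6.98% higher. At 400 μM 9 of 32 members fell and 0 rose, against 14.3% of all genes lower and 14.7% higher. The log2 fold change was positive for 11 and 10 of the 32 members, with a median of -0.14 at 200 μM and -0.20 at 400 μM, and that of all tested genes was -0.01 at both. All doses were compared with the same 10 control libraries.

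**Figure D3:**
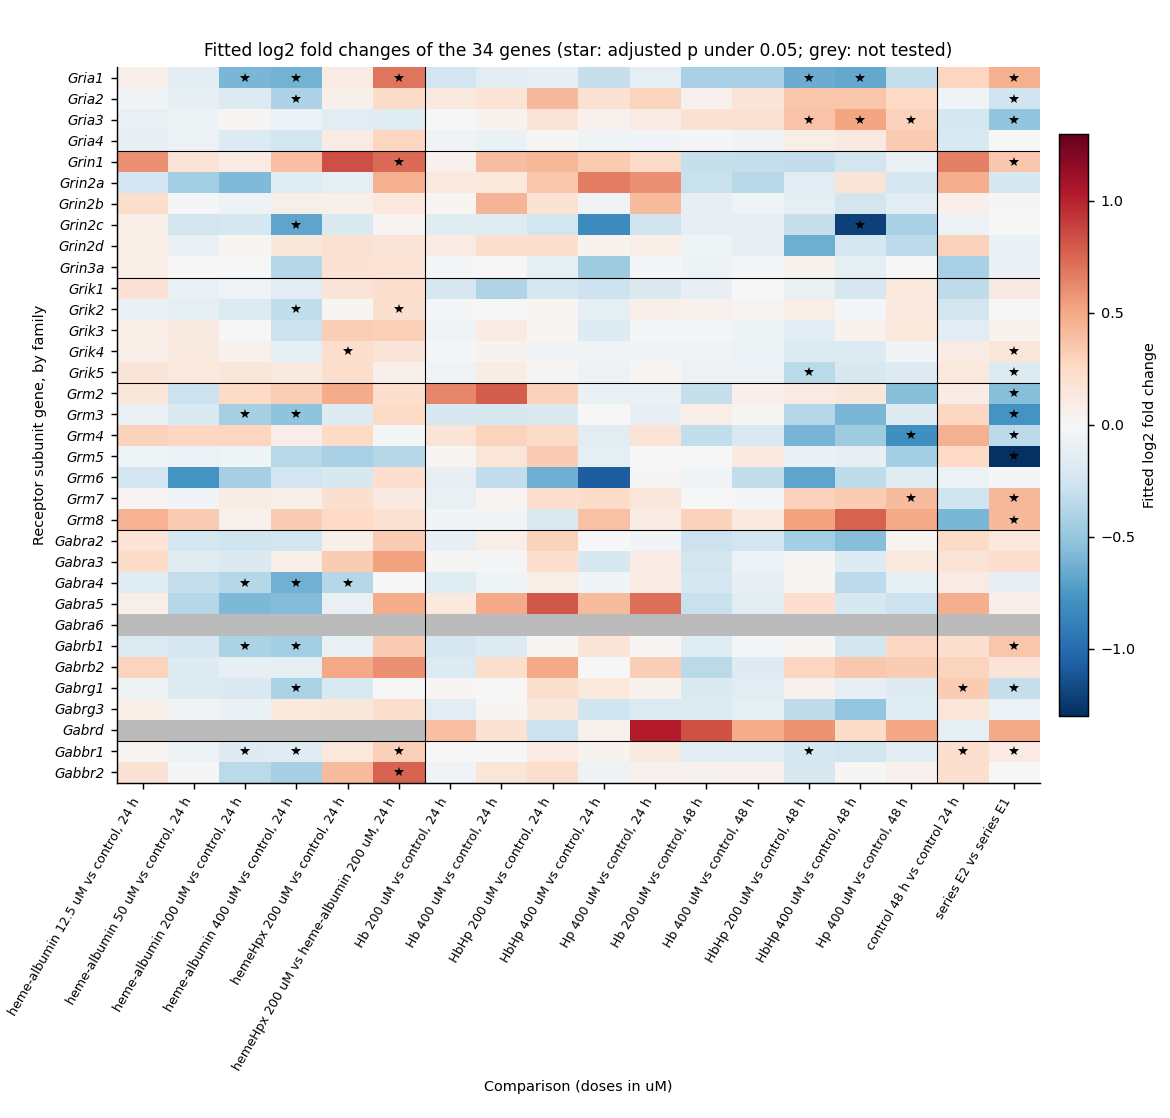
Fitted log2 fold changes of the 34 genes (rows, by family) in 18 comparisons (columns), with a star where the adjusted p was under 0.05 and grey where the gene was not tested. The blue stars for heme-albumin at 200 and 400 μM mark 5 and 9 members, and the last column, series E2 against E1, holds 15.

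Among the AMPA subunits, Gria1, which takes part in activity-dependent insertion of receptors at synapses, fell at both doses. Its CPM ran from 29.1 to 45.5 with a median of 34.1 in control libraries, from 25.7 to 58.3 (median 33.5) at 12.5 μM, from 21.2 to 54.2 (median 31.3) at 50 μM, from 18.6 to 27.6 (median 24.3) at 200 μM and from 11.9 to 32.2 (median 25.5) at 400 μM. All 10 libraries at 200 μM lay below all 10 controls, and at 400 μM 9 of 10 did. The log2 fold change was -0.59 (SE 0.144, adjusted p = 3.12e-03), a level of 0.663 of control, at 200 μM and -0.61 (SE 0.144, adjusted p = 7.96e-04), or 0.654 of control, at 400 μM. Gria2, the subunit that keeps edited AMPA channels impermeable to calcium, ran from 68.7 to 135 CPM (median 89.9) in controls and from 56.7 to 94.1 CPM (median 68.5) at 400 μM. Of the 10 libraries at 400 μM, 9 lay below the control median, and the change was -0.40 (SE 0.0985, adjusted p = 1.5e-03). Gria3 and Gria4 passed at no dose.

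Of the NMDA subunits only Grin2c passed, and only at 400 μM. Its CPM ran from 3.93 to 12.5 in controls (median 8.66), from 4.58 to 9.33 at 200 μM (median 7.58) and from 3.68 to 6.27 at 400 μM (median 5.35). The groups overlapped, since 2 of 10 libraries at 400 μM lay below the lowest control, but all 10 lay below the control median. The log2 fold change at 400 μM was -0.69 (SE 0.152, adjusted p = 3.68e-04), the largest decrease among the members at that dose. Grin1, by contrast, was 6.53 ± 2.79 CPM in controls and 7.01 ± 2.00 CPM at 200 μM (SD, n = 10). Of the kainate subunits, Grik2 fell at 400 μM, from a control range of 23.9 to 40.9 CPM (median 25.8) to 19.1 to 27.5 CPM (median 21.4), a log2 change of -0.32 (SE 0.0811, adjusted p = 1.97e-03).

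Of the metabotropic receptors only Grm3, a Gi-coupled receptor that astrocytes carry, passed. It ran from 25.1 to 36.4 CPM (median 31) in controls, from 20.4 to 34.8 (median 29.3) at 12.5 μM, from 18.3 to 35.1 (median 27.9) at 50 μM, from 16.7 to 30.1 (median 23.8) at 200 μM and from 14 to 32.2 (median 22.3) at 400 μM. All 10 libraries at 200 μM and 9 of 10 at 400 μM lay below the control median. The log2 fold changes were -0.43 (SE 0.117, adjusted p = 8.11e-03) and -0.53 (SE 0.117, adjusted p = 3.98e-04). Grm5, the most abundant metabotropic receptor per length in these controls, ran from 58.2 to 157 CPM in controls and from 40.1 to 131 CPM at 400 μM and did not pass.

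In the GABA-A family, Gabra4, Gabrb1 and Gabrg1 fell, and all of them lie in the cluster of GABA-A genes on chromosome 5. Gabra2, the other GABA-A member of that cluster, was called at no dose (log2 change -0.26 at 200 μM and -0.24 at 400 μM, adjusted p = 0.558 and 0.529). Gabra4 ran from 9.72 to 13.6 CPM (median 11.3) in controls, from 8.67 to 11.5 (median 10.2) at 12.5 μM, from 6.81 to 10.8 (median 9.1) at 50 μM, from 6.65 to 13.9 (median 8.41) at 200 μM and from 5.54 to 10.2 (median 6.95) at 400 μM. At 200 μM 9 libraries lay below every control and 1, replicate 8, lay above every control, and at 400 μM 8 lay below every control. The log2 fold changes were -0.37 (SE 0.101, adjusted p = 8.94e-03) and -0.62 (SE 0.101, adjusted p = 2.49e-06), and the latter was the smallest adjusted p of any member in the heme-albumin comparisons. Without replicate 8, an alternative chosen after its values were seen, the change at 200 μM was -0.46 (adjusted p = 2.83e-04).

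Gabrb1 ran from 38 to 62.9 CPM (median 47.6) in controls, from 27.0 to 41.9 (median 39.2) at 200 μM and from 20.2 to 50.1 (median 40.4) at 400 μM. Every library at 200 μM lay below the control median, and the log2 fold changes were -0.41 (SE 0.129, adjusted p = 0.0247) and -0.44 (SE 0.129, adjusted p = 7.56e-03). With a correction for GC content and transcript length the adjusted p at 200 μM was 0.063. Gabrg1, a gamma subunit, ran from 9.19 to 17 CPM (median 13.3) in controls and from 5.9 to 14.9 (median 9.47) at 400 μM, a change of -0.41 (SE 0.143, adjusted p = 0.0244). It did not pass at 200 μM, where its libraries ran from 8.89 to 18.8 CPM.

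Gabra4 and Gabrb1 lie head to head on opposite strands in RefSeq GRCm38.p6, with start sites at 71658308 and 71657921 on chromosome 5, so that the first transcripts overlap by 388 bases. Their annotated exons also overlap in the reference used for gene lengths. Whether the counting used strand is not given in the sources used here, so reads of both genes in the shared stretch may not have been told apart. The windows from 250 bases before to 50 bases after the start are shown for these neighbours, and for Grm3 and Gabbr1, because these 4 are the members lowered at both 200 and 400 μM for which the promoter table of RefSeq (GRCm38.p6) holds a window; the table holds none for Gria1. The windows lie at chr5:71658259-71658558 on the minus strand (Gabra4), chr5:71657671-71657970 on the plus strand (Gabrb1), chr5:9725303-9725602 on the minus strand (Grm3) and chr17:37045716-37046015 on the plus strand (Gabbr1), and are given 5′ to 3′ on the gene's strand. Capitals mark GGGCGG, the core of the GC box, or its reverse complement CCGCCC.
Gabra4: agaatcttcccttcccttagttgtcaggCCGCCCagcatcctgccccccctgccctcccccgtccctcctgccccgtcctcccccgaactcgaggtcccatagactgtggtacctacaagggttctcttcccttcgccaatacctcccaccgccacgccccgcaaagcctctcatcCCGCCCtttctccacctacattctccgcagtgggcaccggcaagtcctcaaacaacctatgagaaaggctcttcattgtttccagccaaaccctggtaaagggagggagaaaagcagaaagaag
Gabrb1: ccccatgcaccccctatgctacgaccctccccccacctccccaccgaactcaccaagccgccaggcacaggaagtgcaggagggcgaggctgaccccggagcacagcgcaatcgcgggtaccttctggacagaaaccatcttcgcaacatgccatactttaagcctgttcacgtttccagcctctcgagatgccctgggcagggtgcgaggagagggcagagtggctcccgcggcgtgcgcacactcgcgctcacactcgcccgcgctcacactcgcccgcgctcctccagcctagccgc
Grm3: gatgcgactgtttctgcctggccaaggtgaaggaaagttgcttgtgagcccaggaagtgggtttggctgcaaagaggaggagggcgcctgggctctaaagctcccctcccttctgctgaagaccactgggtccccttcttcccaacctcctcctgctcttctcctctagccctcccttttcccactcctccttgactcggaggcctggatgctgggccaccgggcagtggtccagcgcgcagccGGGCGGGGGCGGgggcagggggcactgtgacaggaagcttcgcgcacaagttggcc
Gabbr1: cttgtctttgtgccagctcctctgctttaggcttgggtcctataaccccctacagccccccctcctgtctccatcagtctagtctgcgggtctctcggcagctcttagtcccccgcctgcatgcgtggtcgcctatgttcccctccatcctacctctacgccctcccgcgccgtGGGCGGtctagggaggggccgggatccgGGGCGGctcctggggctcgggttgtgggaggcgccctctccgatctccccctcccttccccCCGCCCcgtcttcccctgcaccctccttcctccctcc

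These windows held 2, 0, 2 and 3 copies of the motif for Gabra4, Gabrb1, Grm3 and Gabbr1, with a GC content of 58.7, 66, 63.7 and 67.3%. The table holds 32 windows for 25 of the 34 members. Of these windows 16 (50.0%), from 15 members, held the motif, against 35.7% of all 32851 windows. A match of these letters describes the window and not a bound site.

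Both GABA-B subunits were measured well above the filter, and Gabbr1 fell slightly at both doses. It ran from 134 to 181 CPM (median 147) in controls, from 131 to 170 (median 152) at 12.5 μM, from 122 to 180 (median 141) at 50 μM, from 123 to 139 (median 133) at 200 μM and from 120 to 144 (median 135) at 400 μM. All 10 libraries at each of the higher doses lay below the control median. The changes were small, at -0.17 (SE 0.0579, adjusted p = 0.0377) and -0.16 (SE 0.0579, adjusted p = 0.0317), and with no filter on low counts they did not pass (adjusted p = 0.0829 and 0.0717). Without replicate 8 of 200 μM the adjusted p at that dose was 0.0546. Gabbr2 was 8.75 ± 4.08 CPM in controls and 6.81 ± 1.70 CPM at 200 μM and passed at neither dose.

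**Figure D4:**
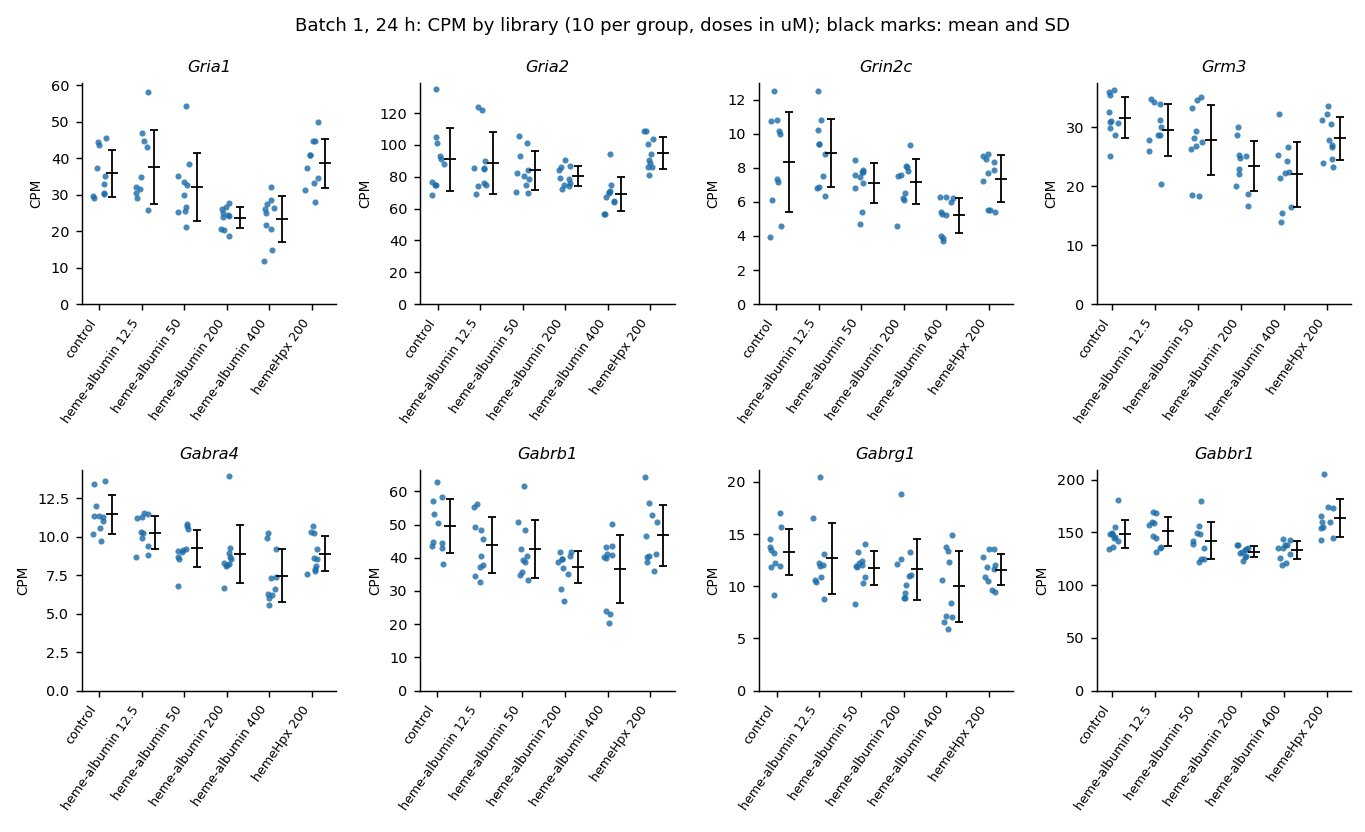
TMM-scaled CPM of 8 members in the libraries of batch 1, by group, with 10 libraries a group; points are libraries and black marks give the mean and SD. For Gria1 all libraries at 200 μM heme-albumin (18.6 to 27.6 CPM) lie below all controls (29.1 to 45.5 CPM), and for Gabra4 1 library at 200 μM stands above the controls at 13.9 CPM.

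Genes that act with the receptors were read in the same way. Of 51 transporters, transmitter enzymes, scaffolds and auxiliary subunits, 4 fell and 0 rose at 200 μM, against 6.6% of all genes lower and 6.98% higher, and 11 fell and 4 rose at 400 μM, against 14.3% and 14.7%. At 200 μM the share that fell was near that of all genes. The GABA-degrading enzyme Abat fell by 0.49 (SE 0.0814, adjusted p = 1.44e-05) and then by 0.68 on the log2 scale (SE 0.0816, adjusted p = 1.89e-09). The astrocyte glutamate transporter Slc1a2 fell by 0.53 (adjusted p = 8.37e-05) and by 0.80 (adjusted p = 2.34e-09). At 200 μM the glutamine synthetase gene Glul fell by 0.35 (adjusted p = 0.0193) and Kctd12, an auxiliary subunit of the GABA-B receptor, by 0.66 (adjusted p = 0.0157). At 400 μM the scaffold gene Dlg1 rose by 0.31 (adjusted p = 3.38e-04), and the postsynaptic adhesion gene Nlgn3 fell by 0.35 (adjusted p = 4.65e-04).

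Markers of some cell types fell in the same comparisons. Of 7 astrocyte markers 3 fell at 200 μM and 5 at 400 μM, with a median log2 change of -0.27 and -0.40, and their summed level ran from 7880 to 11900 CPM in controls, from 6460 to 10900 at 200 μM and from 5530 to 9490 at 400 μM. Of 7 microglial markers 6 fell at 200 μM and 2 at 400 μM, with medians of -0.83 and -0.65. Of 4 markers of oligodendrocyte precursors 0 and 2 fell (medians -0.10 and -0.43), of 5 striatal markers 2 and 0 (medians -0.69 and -0.46), and of 7 oligodendrocyte markers 0 at both doses (medians -0.12 and -0.11). Of the 10 neuronal markers 1, the neurofilament gene Nefm, rose at both doses and 0 fell, with a median of -0.08 at 200 μM and 0.22 at 400 μM. Their summed level ran from 602 to 843 CPM in controls and from 576 to 825 CPM at 200 μM. The part of these shifts in the changes of the receptor genes was not tested.

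With hemeHpx at 200 μM 1 member rose and 1 fell against control, while 3.77% of all genes were higher and 4.44% lower. Of the 32 members 22 had a positive log2 change, the changes ran from -0.42 to 0.84, and 7 had an unadjusted p under 0.05. The kainate subunit Grik4 ran from 11.9 to 17.4 CPM (median 14.7) in controls and from 15.1 to 19.4 (median 16.9) with hemeHpx, where all 10 libraries lay above the control median, a rise of 0.22 (SE 0.0684, adjusted p = 0.0406). Gabra4 ran from 7.6 to 10.7 CPM (median 8.57), with 7 of 10 libraries below every control, a fall of 0.37 on the log2 scale (SE 0.1, adjusted p = 0.0333). With the correction for GC content and length 0 members passed, Gabra4 among them (adjusted p = 0.0931), and DESeq2 called 4. Of all 15554 genes 126 passed with that correction and 2001 with DESeq2, against 1276 in the main fit. Grin1 stood at 11.7 ± 5.00 CPM against 6.53 ± 2.79 in controls, and its adjusted p of 0.0503 missed the threshold. Of the 51 partner genes 5 rose and 2 fell, among them the AMPA receptor auxiliary gene Cnih3 at 0.62 (adjusted p = 6.73e-03) and the inhibitory synapse gene Nlgn2 at 0.27 (adjusted p = 0.0335). The neuronal list had a median of 0.61 with 2 of 10 markers called higher (Eno2 and Syp), and its summed level ran from 612 to 1030 CPM.

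Set directly against heme-albumin at the same 200 μM, hemeHpx gave 5 members higher and 0 lower, against 13% of all genes higher and 12.9% lower. The count was 3 with no filter on low counts and 8 with the correction for GC content and length. These fits called 3567 of 22304 and 4683 of 15554 genes, against 4022 of 15554 in the main fit. Gria1 was between 28 and 49.9 CPM (median 39.2) with hemeHpx, above all 10 heme-albumin libraries, a difference of 0.70 (SE 0.144, adjusted p = 4.41e-04). Gabbr1, between 143 and 205 CPM (median 160), likewise lay above every heme-albumin library, by 0.31 (SE 0.0578, adjusted p = 1.14e-04). Gabbr2 ran from 8.01 to 15.8 CPM (median 11) against 3.34 to 10.1 (median 6.53), with 6 of 10 libraries above every heme-albumin library, a difference of 0.77 (SE 0.242, adjusted p = 0.0172). Grin1 ran from 5.13 to 23.1 CPM against 3.54 to 10.1, a difference of 0.73 (SE 0.278, adjusted p = 0.0439), and Grik2 from 26 to 32.6 against 22.4 to 28, a difference of 0.21 (SE 0.0805, adjusted p = 0.0494). Gabra4 did not differ detectably, at 7.6 to 10.7 against 6.65 to 13.9 CPM. Without replicate 8 of heme-albumin 3 of the 5 remained called, Gria1 (adjusted p = 1.18e-03), Gabbr1 (adjusted p = 4.06e-04) and Gabbr2 (adjusted p = 0.0413). Grin1 (adjusted p = 0.093) and Grik2 (adjusted p = 0.0771) were not.

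The glial and neuronal markers moved in this comparison too. Of the microglial list 6 of 7 were higher, with a median of 1.0, of the astrocyte list 3 of 7 (median 0.36), of the oligodendrocyte list 3 of 7 (median 0.34), and of the neuronal list 2 of 10 (median 0.67). Among the 51 partner genes 5 were higher and 2 lower, and Abat at 0.56 (adjusted p = 1.36e-06), Glul at 0.48 (adjusted p = 8.99e-04), Cnih3 at 0.49 (adjusted p = 3.77e-03) and Slc1a2 at 0.36 (adjusted p = 5.63e-03) had the smallest adjusted p. This comparison shares its heme-albumin libraries with the one against control.

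Cell-free hemoglobin left the receptor genes without a call. At 24 h 0 of 33 members passed with Hb at 200 μM and at 400 μM, where 0.0971% and 0.522% of the 16473 genes tested were called, and 0 and 1 members had an unadjusted p under 0.05. The 1 was Grik1 at 400 μM (log2 change -0.39, SE 0.122, adjusted p = 0.185). At 48 h again 0 passed at both doses, against 0.31% and 0.601% of all genes, and Gria1, Gria3 and Gabbr1 had an unadjusted p under 0.05 at each dose. For Gria1 the values were -0.42 at both doses (adjusted p = 0.306 and 0.209). DESeq2 called 0 members in all of these comparisons.

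The other treatments of batch 3 gave 0 calls among the members at 24 h as well, by edgeR and by DESeq2. With HbHp at 200 μM 1.93% of all genes were called and 2 members (Gria2 and Gabra5) had an unadjusted p under 0.05, with HbHp at 400 μM 5.15% and 2 members (Grin2c and Grin3a), and with Hp at 400 μM 0.704% and 2 members (Gria2 and Gabra5). Grin2c at 400 μM HbHp had a log2 change of -0.82 (SE 0.294, adjusted p = 0.0855), with values of 3.86, 2.49, 3.54 and 8.12 CPM in its 4 libraries and 4.31 to 11.9 CPM in the 10 controls. Set against Hb at 200 μM, HbHp at the same dose and 24 h again gave 0 members, with 0.607% of all genes called and 2 members at an unadjusted p under 0.05.

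At 48 h some members were called with HbHp and Hp. With HbHp at 200 μM 3 members fell and 1 rose, against 4.85% of all genes lower and 7.04% higher. With HbHp at 400 μM 2 fell and 1 rose, against 4.56% and 7.39%. With Hp at 400 μM 1 fell and 2 rose, against 5.88% and 4.88%. All share the same 9 control libraries, of which only 2 belong to E2. The fit estimates a common shift between the series over all groups that hold both, and takes it to be the same in each. Fitted on series E2 alone, the members called were 1, 0 and 0, where 646, 766 and 5 of all 16429 genes tested were called.

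Grin2c with HbHp at 400 μM showed the largest change of any treatment in a member called. Its 5 libraries stood at 2.75, 3.77, 3.15, 2.18 and 4.41 CPM, all below the 9 controls, which ran from 5.24 to 9.90 CPM (median 7.02). The 2 controls of series E2 held 5.24 and 7.56 CPM, the former below the 7 of E1, which ran from 5.55 to 9.90 CPM. The log2 fold change was -1.22 (SE 0.282, adjusted p = 1.31e-03), or 0.430 of control. Without these 2 controls it was -1.3 (adjusted p = 1.74e-03), and within E2 alone -1.10 (adjusted p = 0.0945). With HbHp at 200 μM the libraries ran from 1.97 to 8.94 CPM (median 6.81), overlapping the controls, and did not pass. The astrocyte list moved alongside, with 1 of 7 markers lower, a median change of -0.26 and a summed level of 4730 to 7130 CPM against 6030 to 10500 in controls, and its part in the Grin2c result was not tested.

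Gria1 was called lower with HbHp at 48 h, by 0.65 on the log2 scale at 200 μM (SE 0.170, adjusted p = 5.87e-03) and by 0.66 at 400 μM (SE 0.191, adjusted p = 0.0116). Whether these changes passed the threshold depended on the 2 controls of series E2. Those had 49.4 and 67.7 CPM, the other 7 controls 25.1 to 36.3, and the HbHp libraries 22.1 to 42.4 (median 24.6) at 200 μM and 22.6, 30.4, 25.1, 29.3 and 33 at 400 μM. Without these 2 controls, an alternative chosen after their values were seen, the changes were -0.50 (adjusted p = 0.0637) and -0.52 (adjusted p = 0.0745).

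Gria3 was called higher by 0.37 (SE 0.0990, adjusted p = 7.76e-03) and 0.51 (SE 0.109, adjusted p = 4.82e-04) with HbHp at 200 and 400 μM, and by 0.30 (SE 0.0900, adjusted p = 0.0219) with Hp. These calls depended on the terms of the model. The HbHp libraries at 200 μM ran from 41.6 to 52.2 CPM (median 48.4), all 8 below the median of all controls, 52.7 CPM, but above the 2 controls of E2 at 37.9 and 40.7 CPM. The 5 libraries at 400 μM held 58.1, 55.4, 42.1, 51.1 and 54 CPM, also above those 2, and the 7 controls of E1 averaged 55.4 ± 4.74 CPM. With no series term the change at 200 μM was 0.01 (adjusted p = 0.971), and with neither batch nor series in the model it was -0.12 (adjusted p = 0.515).

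The other calls at 48 h were single ones. With HbHp at 200 μM the kainate subunit Grik5 ran from 23.2 to 83.3 CPM (median 67.9) against 75.1 to 108 (median 90.8) in controls, a fall of 0.35 (SE 0.113, adjusted p = 0.0272), and Gabbr1 from 102 to 139 CPM (median 120) against 117 to 175 (median 132), a fall of 0.23 (SE 0.0792, adjusted p = 0.0475). For Grik5 6 of the 8 libraries lay below every control, and no fit without the lowest library was run. With the correction for GC content and length Gabbr1 had an adjusted p of 0.705. With Hp at 400 μM the presynaptic receptor Grm4 ran from 0.555 to 2.81 CPM (median 1.61) against 2.15 to 3.95 (median 3.57), with 8 of 11 libraries below every control, a fall of 0.79 (SE 0.239, adjusted p = 0.0209). Grm7, another presynaptic group III receptor, ran from 10.2 to 18.0 CPM (median 13.6) against 6.55 to 16.8 (median 10.8), a rise of 0.41 (SE 0.139, adjusted p = 0.0428). Within E2 its means were 14.4 CPM with Hp and 14.8 in the 2 controls, and within E1 12.7 and 8.87 CPM. Set against Hb at 200 μM, HbHp at 48 h gave 0 members by edgeR and by DESeq2, with 4.98% of all genes called and 6 members at an unadjusted p under 0.05.

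Of the 51 partner genes at 48 h, 7 fell and 2 rose with HbHp at 200 μM, where 4.85% of all genes were lower and 7.04% higher. With HbHp at 400 μM 5 fell and 3 rose, against 4.56% and 7.39% of all genes, and with Hp 6 fell and 0 rose, against 5.88% and 4.88%. Camk2b, a kinase of the postsynaptic density, fell with HbHp at 200 μM by 0.68 (adjusted p = 0.0145) and with Hp by 0.78 (adjusted p = 2.5e-03). Abat, the GABA transaminase gene, fell with HbHp at 400 μM by 0.35 (adjusted p = 2.26e-03). The limit of 2 control libraries in E2 holds for these genes too.

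Whether a treatment acted differently at 24 h and at 48 h was tested as an interaction. No member passed for any of the 5 treatments. Of all genes 0.0% were called for Hb at 200 μM, 0.0% for Hb at 400 μM, 0.0121% for HbHp at 200 μM, 0.0304% for HbHp at 400 μM and 0.0% for Hp. The members with an unadjusted p under 0.05 numbered 0, 1, 6, 2 and 6, and DESeq2 called 0 members in each. The smallest p was that of Gabbr1 for HbHp at 200 μM (difference of log2 changes -0.33, SE 0.0943, adjusted p = 0.225). The calls at 48 h and their absence at 24 h were therefore not shown to differ.

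Between control slices at 24 h and 48 h 2 members were called. Gabrg1 rose by 0.33 (SE 0.0938, adjusted p = 0.026), from 6.66 to 14 CPM (median 12.2) to 11 to 18.2 (median 13.9), and Gabbr1 rose by 0.22 (SE 0.0637, adjusted p = 0.031), from 98.2 to 142 CPM (median 119) to 117 to 175 (median 132). Among all genes 1.66% were higher and 2.85% lower at 48 h. Neither passed without the 2 controls of E2 at 48 h (adjusted p = 0.146 for Gabrg1 and 0.104 for Gabbr1), with no series term (0.0776 and 0.072) or in series E2 alone (0.0851 and 0.29), and with the correction for GC content and length Gabbr1 did not (0.06). Of the 51 partner genes 1 rose and 3 fell. Of the microglial markers 2 of 7 rose (median 0.61), of the oligodendrocyte markers 4 of 7 fell (median -0.31) and of the endothelial markers 1 of 5 fell (median -0.64), and 0 of the 10 neuronal and 0 of the 7 astrocyte markers were called, with medians of 0.36 and 0.26. The part of these markers in both calls was not tested.

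**Figure D5:**
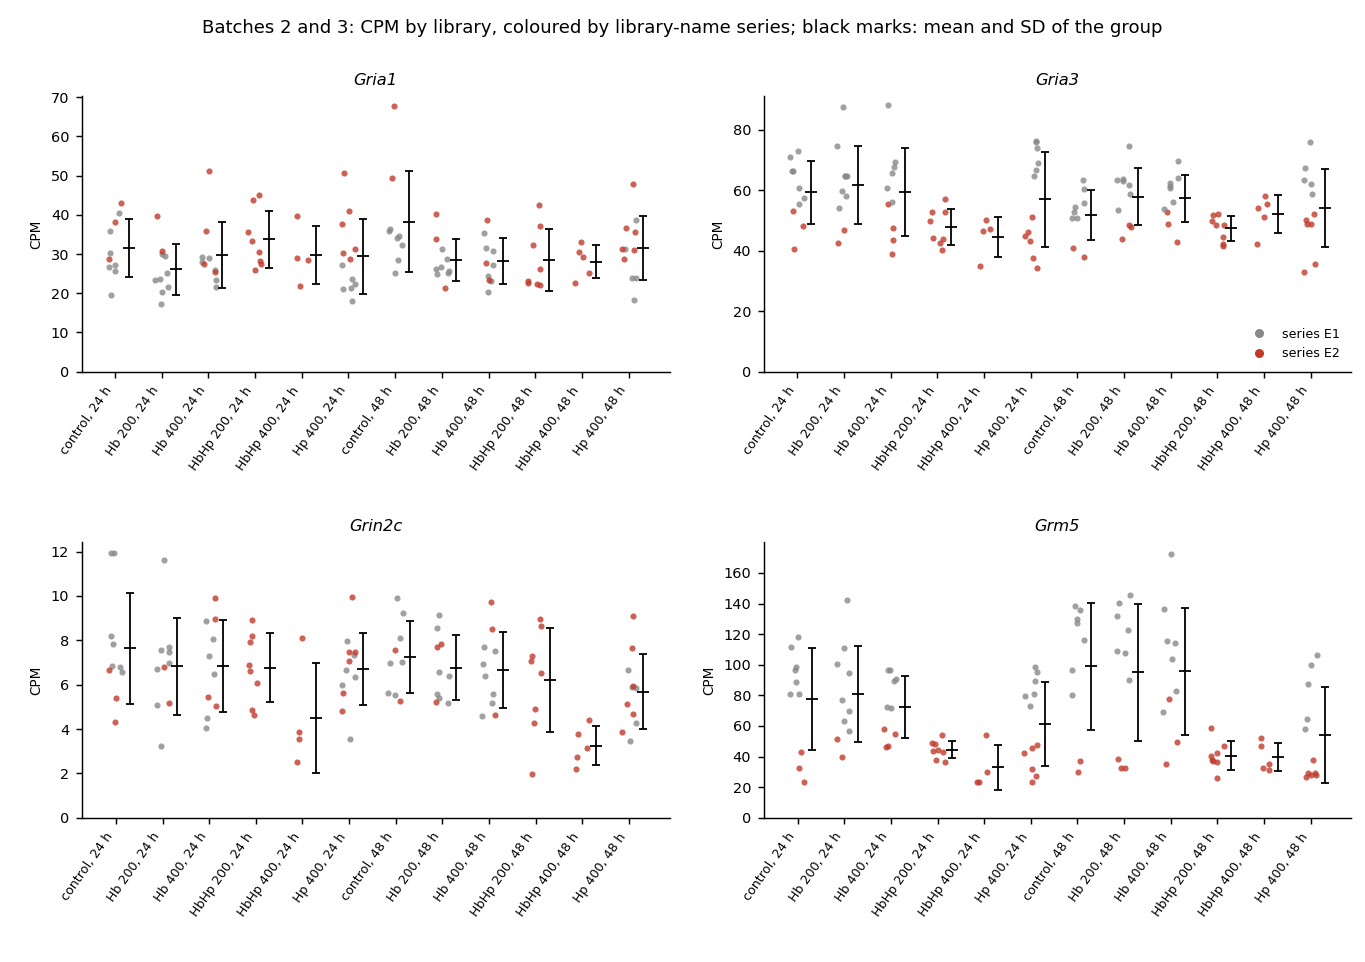
TMM-scaled CPM of Gria1, Gria3, Grin2c and Grm5 in the libraries of batches 2 and 3, by treatment, dose and time, with series E1 and E2 in different colours; points are libraries and black marks give the mean and SD of the group. Grm5 separates the series in the controls at both times, and for Grin2c the 5 libraries of 400 μM HbHp at 48 h (2.18 to 4.41 CPM) lie below all 9 controls.

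Of all members called in any comparison, Grm5 showed the largest difference, and it lay between the series. In E2 7 members were higher and 8 lower than in E1, against 36.1% and 31.9% of all genes. Grm5 differed by -1.3 (SE 0.0879, adjusted p = 3.29e-24), with 23 to 42.7 CPM in the 3 E2 controls at 24 h and 81 to 118 in the 7 E1 controls, and 30.1 and 37.4 CPM against 80 to 138 at 48 h. The controls of both series did not overlap at either time. With Hb at 400 μM and 48 h the series did overlap, at 34.8 to 77.7 CPM in E2 and 69.3 to 172 in E1. The other lower members were Grm3 (-0.78), Grm2 (-0.55), Gria3 (-0.51), Grm4 (-0.34), Gabrg1 (-0.31), Gria2 (-0.26) and Grik5 (-0.18). The higher ones were Gria1 (0.46), Grm7 (0.44), Grm8 (0.43), Gabrb1 (0.36), Grin1 (0.35), Grik4 (0.15) and Gabbr1 (0.10). Markers of other cells moved with the series as well, with all 7 microglial markers higher (median 1.12), all 7 oligodendrocyte markers higher (median 0.45) and 7 of 10 neuronal markers higher and 1 lower, and of the partner genes 15 were higher and 20 lower. The part of these markers in the differences between the series was not tested.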

How the data were processed

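Bulk mRNA libraries of mouse brain slice cultures were measured, and for each library the authors deposited raw read counts, as whole numbers by Ensembl gene ID. Their processing notes name featureCounts and the build GRCm39; the aligner, the annotation and the use of strand are not given in the sources used here. Gene names, exon lengths and promoter windows came from GRCm38 and RefSeq GRCm38.p6, and no coordinates were carried to the build of the counts.

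Counts were fitted with edgeR 4.0.16 (R 4.3.3), with TMM scaling, filterByExpr, the quasi-likelihood F test and Benjamini-Hochberg adjustment over all genes tested at 0.05. The 60 libraries of batch 1 were fitted by group, and the 107 assigned libraries of batches 2 and 3 by group with batch and series as terms. The series term was included because earlier results of these data had shown a large difference between E1 and E2. Each standard error was derived from the F statistic, as the absolute log2 change over √F. The authors' own tests were made with DESeq2, which was run here (version 1.42.0) as an alternative. The other alternatives were RLE scaling, other filters on low counts, a correction for GC content and length, the replicate block, other terms and subsets of libraries. On simulated counts with known changes, for heme-albumin at 200 μM 56 of 86 genes with a simulated log2 change of 0.5 were called, and 106 of 114 with a change of 1.0 (15493 genes), and for HbHp at 200 μM and 48 h 58 of 90 and 80 of 110 (16314 genes). The simulated counts held no difference between series or batches, so the recovery for HbHp was measured without the one in the data.

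The members and the gene lists were chosen with earlier results of these data known. Some partner genes are counted within their list but not reported by name here. In each comparison all members with an adjusted p under 0.05 are named, and values by library are given for those called in at least 3 comparisons; Grin2c, Gria2, Grik2 and the members called in 1 or 2 comparisons are given in the same way, chosen after their values were seen. No library was alike to another of its group within sampling noise. The spread between libraries includes sampling error, and library totals of 11 M counts and more limit the precision only for the lowest members.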

Additional observations from a re-analysis of the deposited data

Results flagged for a closer look

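A library was noted where its gap to the nearest of its group exceeded the critical share of the group's range (Dixon's test at the 95% level). Of 112 groups tested 10 were noted, and chance gives about 1 in 20. None of these values was left out of the comparisons above.

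For the AMPA subunit Gria1, replicate 8 of heme-albumin at 50 μM held 54.2 CPM, with 38.6 CPM the next below, and replicate 6 of Hb at 400 μM and 24 h held 51.2 CPM, with 35.8 CPM the next. For Grm3, replicate 1 of HbHp at 200 μM and 48 h held 20.8 CPM, with 14.2 CPM the next. For Gabra4, replicate 8 of heme-albumin at 200 μM held 13.9 CPM, with 9.26 CPM the next, and replicate 3 of Hb at 400 μM and 24 h was the lowest of its group at 4.6 CPM, with 6.84 CPM the next above.

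For Gabrb1, replicate 7 of the 48 h controls held 59.5 CPM, with 40.8 CPM the next, and that library is 1 of the 2 controls of series E2. For Gabrg1, replicate 8 of heme-albumin at 200 μM, the library already named for Gabra4, held 18.8 CPM, with 13.3 CPM the next. For Gabbr1, replicate 3 of the batch 1 controls held 181 CPM, with 155 CPM the next, replicate 3 of hemeHpx held 205 CPM, with 174 CPM the next, and replicate 6 of Hb at 400 μM and 24 h, the library named for Gria1, held 148 CPM, with 128 CPM the next.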

How the results depend on the processing

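Of 48 calls in single genes, 48 kept direction and significance under DESeq2 and 48 under RLE scaling, 41 with no filter on low counts, 46 of 46 with at least 10 counts in every library and 38 with the correction for GC content and length. The counts of members called moved by over 1.5 times as follows, and the causes were not tested. HemeHpx against control (2 called) gave 4 with DESeq2, 1 with no filter, 4 with at least 10 counts and 0 with the GC and length correction. Of all genes these fits called 2001 of 15554, 277 of 22304, 1556 of 13517 and 126 of 15554. HemeHpx against heme-albumin (5) gave 3 with no filter, 8 with the GC and length correction, 8 with 30 libraries only and 3 without replicate 8 of heme-albumin. Here the calls over all genes were 3567 of 22304, 4683 of 15554, 4317 of 15198 and 2794 of 15610. The GC and length correction gave 1 for HbHp at 200 μM and 48 h (4) and 1 for control at 48 h against 24 h (2), where 1040 and 920 of 16473 genes were called.

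With no series term the counts were 1 for HbHp against Hb at 24 h (0), 5 for HbHp at 400 μM and 48 h (3), 1 for Hp at 48 h (3), 5 for HbHp against Hb at 48 h (0) and 0 for control at 48 h (2). Of all 16473 genes 940, 3356, 1779, 2327 and 375 were called in these comparisons. With neither batch nor series they were 1, 2 and 1 for HbHp at 200 μM, at 400 μM and against Hb at 24 h (0 each), 10, 11, 6 and 5 for HbHp at 200 μM, at 400 μM, Hp and HbHp against Hb at 48 h, and 0 for control at 48 h. The calls over all genes were then 1211, 1817 and 1624 at 24 h, 5150, 4300, 2717 and 3427 at 48 h, and 343 for control at 48 h. In that fit Gria3 with HbHp at 200 μM and 48 h turned from 0.37 to -0.12 (adjusted p = 0.515). Series E2 alone gave 1 for HbHp at 200 μM, 0 for HbHp at 400 μM, 0 for Hp and 0 for control at 48 h, where 646, 766, 5 and 144 of 16429 genes were called. The 48 h libraries fitted alone gave 1 for HbHp at 200 μM and 0 for Hp, where 771 and 245 of 16074 genes were called. Without the 2 E2 controls at 48 h, chosen after the values were seen, the counts were 2 for HbHp at 200 μM, 5 for Hp and 1 for control at 48 h against 24 h. Of 16461 genes 1899, 2633 and 559 were called there. Over all treatment comparisons of batches 2 and 3 (10 calls) the total was 6 with the GC and length correction, 18 with no series term, 36 with neither term and 1 in series E2 alone. The larger totals are mostly other calls than those of the main fit. Of 12 calls, control at 48 h against 24 h included, 3 kept direction and significance with no series term, 5 with neither term and 1 in series E2 alone. Leaving out each HbHp library at 400 μM gave 0 to 1 members at 24 h, the 1 without replicate 4, and 3 at 48 h each time. The calls over all genes ran from 322 to 1279 at 24 h, the latter without replicate 4, and from 1322 to 2105 at 48 h.

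The codes in the library names were not taken to pair the samples, since only 58% of pairs with the same code in batch 1 and 43.3% in batches 2 and 3 correlated over 0.1. The mean was 0.16 in batch 1, against -0.01 for other codes, with 6 of 9 codes averaging over 0.1, and 0.08 in batches 2 and 3, with 7 of 18. With this replicate block the count was 1 for heme-albumin at 50 μM (0), 5 for hemeHpx against control, 10 for hemeHpx against heme-albumin and 0 for control at 48 h, and 30 of 33 calls kept direction and significance. Over all genes the block moved the calls from 72 to 198 for heme-albumin at 50 μM, from 1276 to 3706 for hemeHpx against control, from 4022 to 5131 for hemeHpx against heme-albumin and from 742 to 142 for control at 48 h. Levels in unscaled CPM moved by less than 1 SD for all 68 compared.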

Other observations

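The 21 libraries that the labels put in no group were scaled with batches 2 and 3, and their values enter no comparison. In the 20 that carry an HbHpx label, Gria1 ran from 18.3 to 47.4 CPM with a median of 28.3, Grm5 from 15.0 to 80.1 with a median of 45.4, Gabrb1 from 18.1 to 38.8 with a median of 27.8 and Gabbr1 from 104 to 161 with a median of 133. Grin2c ran from 0.259 to 3.66 CPM with a median of 1.46, and Gabra4 from 2.17 to 5.56 with a median of 3.64. Gabra6 had no read in any of the 20. The 1 library with a control label and 2 times of exposure in its labels held 42.9 CPM of Gria1, 6.64 of Grin2c, 35.3 of Grm5, 6.73 of Gabra4, 49.5 of Gabrb1 and 151 of Gabbr1.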
